A study of Mus musculus with 8 samples.

Results

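The MYC, MAX and MXD network is a set of basic helix-loop-helix leucine zipper factors that share binding sites and partners. Its members here were the 9 genes Myc, Mycn, Mycl, Max, Mxd3, Mxd4, Mnt, Mga and Mlx, taken by symbol from the 55335 genes counted. RNA-seq of polyA RNA was done on E14 cells, a mouse embryonic stem cell (ESC) line, in 4 groups of 2 biological replicates. All groups were infected with lentiviral shRNA and selected with puromycin, and grew on gelatin in medium with LIF, the GSK3 inhibitor CHIR99021 and the MEK inhibitor PD0325901. The control group carried the negative control (scrambled) shRNA, and the knockdown (KD) groups carried shRNA against Sox2, hnRNPK or Cdk9. The study names 2 shRNAs against Sox2 and 2 against hnRNPK, and its text gives no number for Cdk9. Which shRNA a library received is not given in the sources used here. The comparisons address how the network genes depend on the pluripotency factor SOX2, on the RNA and DNA binding protein hnRNPK and on CDK9, the kinase of the elongation factor P-TEFb.

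In this network, a MYC protein (MYC, MYCN or MYCL) pairs with MAX, binds the E-box CACGTG and activates genes of growth and metabolism. The MXD proteins and MNT pair with MAX at the same sites and recruit SIN3 and histone deacetylases, so that they oppose MYC. MGA pairs with MAX inside the polycomb complex PRC1.6, which keeps germline genes silent in ESCs, and MLX is a second partner, for some MXD proteins, MNT and the glucose-responsive factors MLXIP and MLXIPL. ESCs are known to express Mycn and Mycl beside Myc, and MYC activity is known to support their self-renewal.

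Promoter windows, from 250 bases before to 50 bases after the RefSeq start (GRCm38.p6), were found for 8 of the 9 members (all but Myc). CACGTG, which reads the same on both strands, was in 4 of these 8 windows and in 7.15% of all 32851 windows. The stretches that hold it are shown because they are the letters to which the network's own dimers bind, with the E-box in capitals and 10 bases on each side, 5′ to 3′ on the gene's strand. Mxd4 is at chr5:34187914-34187939 (minus strand, first E-box base at -219 from the start), Mnt at chr11:74830791-74830816 (plus strand, -123), Mlx at chr11:101087240-101087265 (plus strand, -40) and Max at chr12:76962236-76962261 (minus strand, -3).
Mxd4: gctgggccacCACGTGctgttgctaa
Mnt: ccacccaagcCACGTGtgcgcgcgcg
Mlx: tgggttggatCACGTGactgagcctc
Max: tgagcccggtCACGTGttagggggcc

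The Mycl window held no CACGTG. It was the only member's window with the letters CATTGT on either strand, the core of the motif that SOX proteins bind. That is 1 of 8 member windows (12.5%) beside 12.6% of all windows, so the match does not set the members apart. Binding of SOX2 at this match was not tested. The match is on the minus strand, so that it reads ACAATG (capitals) on the plus strand, at chr4:122995930-122995955, with its first base at position 10 after the RefSeq start. In the GENCODE annotation Mycl begins further upstream, at 122995652, so the stretch lies inside that gene model.
Mycl: cagtcgggaaACAATGcgcctgcaga

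Total counts per library were 16709201 to 17719366, and 16504 genes, all 9 members among them, passed the filter on low counts. The marker check found all 12 pluripotent cell markers present in each group, with a summed level of 7058 to 9797 CPM (counts relative to library size). Sox2 was 412 and 530 CPM in control and 320 and 284 in Sox2-KD (log2FC -0.64 ± 0.16, SE, adjusted p = 0.0479 in edgeR's quasi-likelihood test, up to 0.311 and not called with any 1 of the 4 libraries left out). Cdk9 was 109 and 129 CPM in control and 73.1 and 53.2 in Cdk9-KD (-0.91 ± 0.18, adjusted p = 0.0985 by the same test). Hnrnpk was 1094 and 1131 CPM in control but 697 and 1144 in the libraries labelled hnRNPK-KD, so that replicate 2 of that label was not lower than control, and the members' changes under the label are also given without it. CPM are normalized throughout by the trimmed mean of M-values (TMM), log2FC is the log2 fold change from edgeR with its SE, and a gene is called where the Benjamini-Hochberg adjusted p over all genes tested is under 0.05 and the absolute log2FC is over 0.6. In bulk RNA, fewer cells that express a gene and less RNA per cell cannot be told apart.

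In Sox2-KD, Mycl and Mycn fell and Mxd4 rose, and the other 6 members were not called. These 3 of 9 members stand beside 4.32% of all genes called in this comparison. The members were chosen with earlier results of these data known, so setting these shares side by side is not a test. The libraries of the groups did not overlap for 4 of 9 members, against 53.3% of all genes tested, so that lack of overlap alone does not set the members apart. No member was called in Cdk9-KD or under the label hnRNPK-KD.

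**Figure D1:**
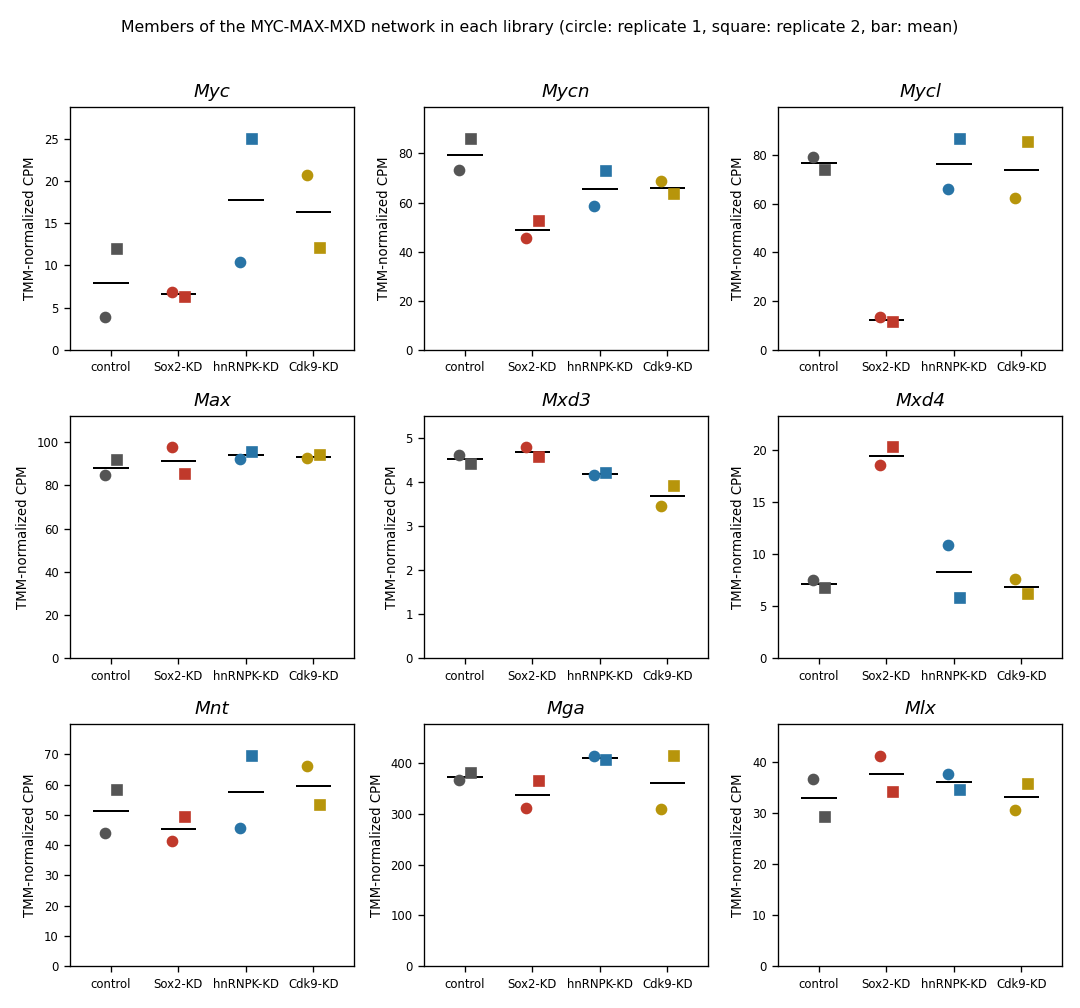
TMM-normalized CPM (y axis, each from 0) of the 9 members in each library of the 4 groups (x axis), with circles for replicate 1, squares for replicate 2 and a bar for the mean of 2. Mycl lies at 11.2 and 13.3 CPM in Sox2-KD and between 62.2 and 86.5 in all other libraries, Mxd4 is highest in Sox2-KD at 18.6 and 20.3, and the Myc libraries spread from 3.89 to 25.

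Mycl encodes L-MYC, the family member with the weaker transforming activity, and spans chr4:122995652-123002485 on the plus strand (GRCm38). It had 1407 and 1288 counts in control, 242 and 197 in Sox2-KD, 1125 and 1486 in those labelled hnRNPK-KD, and 1064 and 1442 in Cdk9-KD. Both Sox2-KD libraries lay far below the other 6, which overlapped with each other. The mean level was 76.5 ± 3.85 CPM (SD, n = 2) in control and 12.3 ± 1.45 in Sox2-KD, which is 16% of control. Mycl fell by 2.64 on the log2 scale in Sox2-KD (SE 0.21, 95% interval -3.11 to -2.17, edgeR quasi-likelihood adjusted p = 0.000349). It also fell against the libraries labelled hnRNPK-KD (log2FC -2.63, adjusted p = 0.000357 in edgeR) and against Cdk9-KD (-2.59, adjusted p = 0.000374 in edgeR), and it was called in each of the 4 fits that left out 1 library of a comparison, in all 3 comparisons. Against control, the label hnRNPK-KD gave -0.01 (95% interval -0.43 to 0.42) and Cdk9-KD gave -0.05 (-0.48 to 0.38).

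Mycn encodes N-MYC, the MYC protein of early embryonic and neural progenitors, and spans chr12:12936093-12941914 on the minus strand. Its level was 73.2 and 85.9 CPM in control, 45.4 and 52.5 in Sox2-KD, 58.4 and 72.8 in the label hnRNPK-KD, and 68.8 and 63.3 in Cdk9-KD. The 2 control libraries were the highest of the 8 and the 2 Sox2-KD libraries the lowest. Mycn fell by 0.70 on the log2 scale in Sox2-KD (SE 0.17, adjusted p = 0.0430 in edgeR), to 61.6% of control. The call stands close to the threshold: the adjusted p was 0.254 without control replicate 2, and it was not called without any one of the 4 libraries (log2FC -0.83 to -0.59). Against control the label hnRNPK-KD gave -0.28 ± 0.17 and Cdk9-KD -0.27 ± 0.17 (SE, adjusted p = 0.751 and 0.623 in edgeR), and Sox2-KD did not differ beyond the test from either of them (-0.42 and -0.43, adjusted p = 0.175 and 0.161 in edgeR).

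Myc, the founding member, spans chr15:61985391-61990374 on the plus strand and had the lowest level of the 3 MYC genes per kilobase of annotated exon in all 8 libraries. With the length of its principal transcript it stood above Mycl in both Sox2-KD libraries (19.5% against 14.7% and 16.6% against 11.7% of the 3 genes' sum). Its level was 3.89 and 12.0 CPM in control, 6.87 and 6.22 in Sox2-KD, 10.4 and 25 in the label hnRNPK-KD and 20.7 and 12.0 in Cdk9-KD. The replicates of control differed 3.08-fold and those of the label hnRNPK-KD 2.39-fold, more than for any other member in these groups. The log2FC against control was -0.28 (95% interval -1.42 to 0.87) in Sox2-KD, 1.16 (0.03 to 2.29) in the label hnRNPK-KD and 1.05 (-0.08 to 2.17) in Cdk9-KD, with edgeR adjusted p of 0.827, 0.603 and 0.514. None of these passed the test. The values rest on single libraries: in Sox2-KD it was -0.89 with control replicate 1 left out and 0.74 with control replicate 2 left out, in the label hnRNPK-KD it was 0.37 without hnRNPK-KD replicate 2 and 0.54 without control replicate 1, and in Cdk9-KD it was 0.41 without control replicate 1. Sox2-KD libraries were lower than both other knockdowns, at -1.43 and -1.32 (adjusted p = 0.135 and 0.162 in edgeR's quasi-likelihood test), which missed the threshold. By DESeq2 both were called (adjusted p = 0.0264 and 0.0452), and edgeR called the second with only the 4 libraries of that comparison (adjusted p = 0.0438), but its likelihood ratio test called neither (0.0592 and 0.0859).

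**Figure D2:**
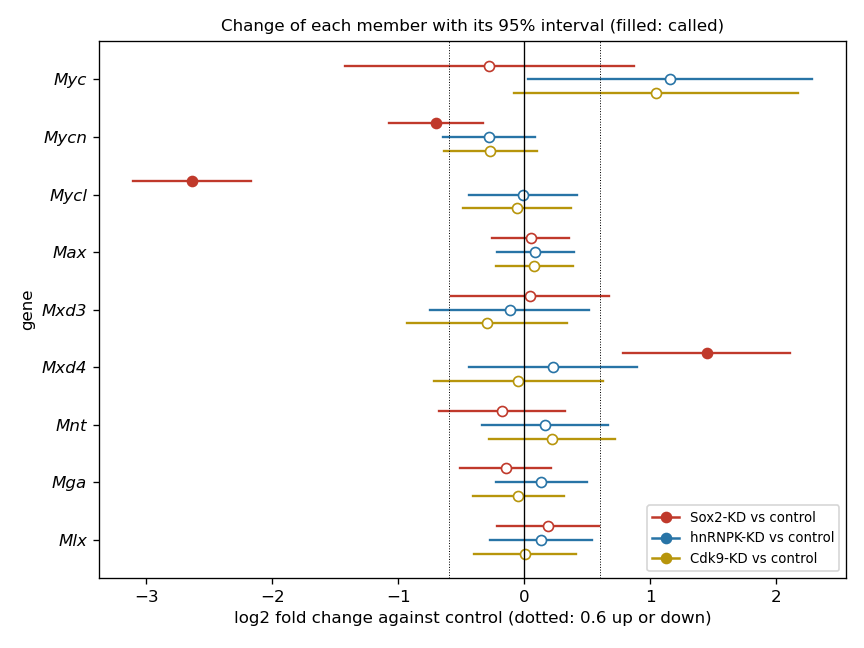
Log2 fold change against control (x axis) of each member (y axis) in the 3 knockdown labels, with bars for the 95% interval, filled circles for called genes and dotted lines at 0.6 up and down. The 3 filled circles are Mycl at -2.64, Mycn at -0.70 and Mxd4 at 1.45, all in Sox2-KD, and the Myc intervals are the widest.

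Per kilobase of exon, the 3 MYC genes together were lower in Sox2-KD and their make-up was different. The summed level was 43.3 and 48.7 CPM per kb in control, 19.6 and 21.0 in Sox2-KD, 37.9 and 52.7 in the label hnRNPK-KD and 43.9 and 44.7 in Cdk9-KD. Mycn held 51.3% and 53.5% of the sum in control and 70.3% and 75.8% in Sox2-KD, while Mycl held 45.3% and 37.5% in control and 16.8% and 13.3% in Sox2-KD. Myc held 3.31% and 9.04% in control and 12.9% and 10.9% in Sox2-KD, while its own level did not pass the test. The antagonists Mxd1, Mxi1, Mxd3, Mxd4 and Mnt summed to 19.3 to 24.1 CPM per kb over the 8 libraries. The ratio of MYC genes to antagonists was thus 2.22 and 2.02 in control, 0.998 and 0.959 in Sox2-KD, and 1.89 to 2.26 in the other 4 libraries. With the length of the APPRIS principal transcript in place of all annotated exons, chosen after seeing the data, the ratio was 1.54 and 1.47 in control and 0.760 and 0.733 in Sox2-KD. These sums and ratios are descriptions of RNA, with no test.

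**Figure D3:**
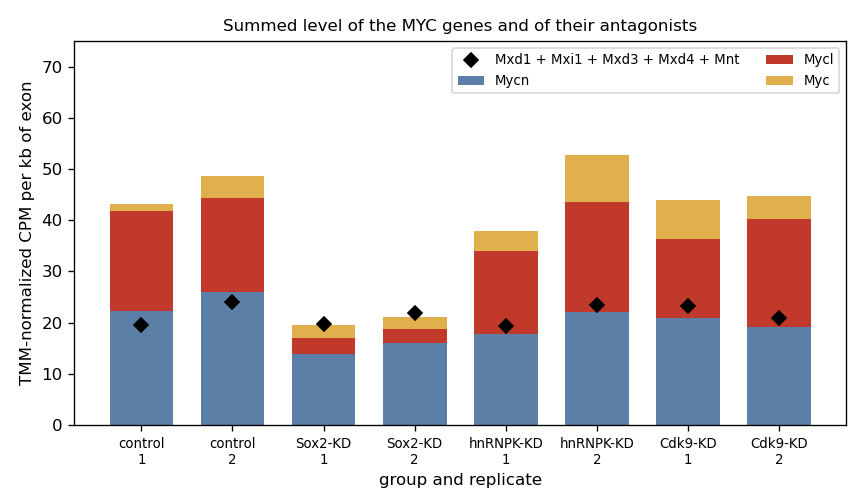
Summed TMM-normalized CPM per kb of exon (y axis) of Mycn, Mycl and Myc as stacked bars, and of the antagonists Mxd1, Mxi1, Mxd3, Mxd4 and Mnt as diamonds, in each of the 8 libraries (x axis). The bars of Sox2-KD reach 19.6 and 21.0, about the height of the diamonds, while the bars of all other libraries are at 37.9 or above.

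Max, the shared partner, spans chr12:76937269-76962201 on the minus strand. It stayed within 84.7 to 97.6 CPM in all 8 libraries, and the replicates of no group differed by more than 1.14-fold. The log2FC against control was 0.05 in Sox2-KD (95% interval -0.25 to 0.36), 0.09 in the label hnRNPK-KD (-0.22 to 0.40) and 0.08 in Cdk9-KD (-0.23 to 0.39). Each interval lies inside the fold threshold of 0.6. Max is known to be spliced into isoforms of different function, which counts per gene cannot separate.

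Mxd4 encodes MAD4, a MAX partner linked to growth arrest and differentiation, and spans chr5:34173883-34187720 on the minus strand. Its counts were 133 and 117 in control, 338 and 355 in Sox2-KD, 185 and 99 in the label hnRNPK-KD, and 130 and 104 in Cdk9-KD. Both Sox2-KD libraries lay above all 6 others. The level was 7.10 ± 0.556 CPM (SD, n = 2) in control and 19.4 ± 1.19 in Sox2-KD, and Mxd4 rose with a log2FC of 1.45 (SE 0.30, adjusted p = 0.0247 in edgeR). It was also called against the label hnRNPK-KD (1.22, adjusted p = 0.0373 in edgeR) and against Cdk9-KD (1.5, adjusted p = 0.0145 in edgeR, up to 0.0931 and not called without Sox2-KD replicate 2 or Cdk9-KD replicate 2). The direction held with any library left out, but the call against control did not, with adjusted p of 0.0690 to 0.157 without 1 of the 4 libraries. Against the label hnRNPK-KD it was not called without hnRNPK-KD replicate 2 (0.85, adjusted p = 0.215 in edgeR), nor without either Sox2-KD library (adjusted p up to 0.241). Its exons share 514 bases with the antisense gene Gm42846, which had no counts.

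Mxd3 and Mnt, the other antagonists among the members, were not called in any comparison. Mxd3 (chr13:55325168-55329823, minus strand), known from cells in S phase, was 4.41 to 4.62 CPM in control, 4.57 to 4.78 in Sox2-KD, 4.16 to 4.19 in the label hnRNPK-KD and 3.45 to 3.90 in Cdk9-KD. Its log2FC against control was 0.05, -0.11 and -0.30 in that order of knockdowns. These levels are uncertain, because its exons share 105 bases with Prelid1 on the other strand, which had 2950 to 3767 counts where Mxd3 had as few as 59. Mnt (chr11:74830920-74845725, plus strand), the broadly expressed antagonist, was 44.1 and 58.3 CPM in control, 41.4 and 49.2 in Sox2-KD, 45.6 and 69.5 in the label hnRNPK-KD and 66.1 and 53.3 in Cdk9-KD. Its log2FC was -0.18, 0.17 and 0.22, and the 3 intervals together ran from -0.68 to 0.72. In the label hnRNPK-KD it was -0.19 without hnRNPK-KD replicate 2.

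Mga, the scaffold of PRC1.6, spans chr2:119897228-119969581 on the plus strand and had the most counts of all members, 5279 to 7051 per library. It was 366 and 380 CPM in control, 312 and 364 in Sox2-KD, 413 and 406 in the label hnRNPK-KD and 308 and 414 in Cdk9-KD. Its log2FC was -0.14 ± 0.16, 0.13 ± 0.16 and -0.05 ± 0.16 (SE), with edgeR adjusted p of 0.686 to 0.958. Mlx (chr11:101087277-101092207, plus strand) was 36.6 and 29.2 CPM in control and 30.6 to 41.2 in the knockdown libraries, with log2FC of 0.19, 0.13 and 0.01. None of these differences passed the test. Mlx shares 385 exon bases with Psmc3ip on the other strand, which had 269 to 373 counts where Mlx had at least 510, so its level is uncertain to that extent.

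Per kilobase of exon, the order of the members in control was Max (24.5 ± 1.36 CPM per kb, SD, n = 2), Mga (24.3 ± 0.631), Mycn (24.1 ± 2.72), Mycl (18.9 ± 0.953), Mlx (16.5 ± 2.61), Mnt (11.1 ± 2.17), Myc (2.92 ± 2.10), Mxd3 (1.91 ± 0.0616) and Mxd4 (0.836 ± 0.0656). Max, Mga and Mycn did not differ beyond the larger SD of the neighbours, nor did Mycl from Mlx or Myc from Mxd3. In Sox2-KD, Mycn at 14.9 ± 1.52 stood below Mlx at 18.8 ± 2.55, and Mycl at 3.04 ± 0.360 stood below Mnt at 9.80 ± 1.19. Mxd4 at 2.29 ± 0.141 stood above Mxd3 at 1.97 ± 0.0642 there, and next to Myc at 2.41 ± 0.169, from which it did not differ beyond the SD. With the length of the principal transcript, Max was highest in control, at 45.4 CPM per kb, followed by Mycn at 29.7 and Mga at 26.8, and the order of the other 6 did not change.

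In the other comparisons the counts of members were low. In the label hnRNPK-KD against control, edgeR's quasi-likelihood test called 0 of 9 members and 0% of all genes (1325 had an unadjusted p under 0.05, the likelihood ratio test called 87 and DESeq2 69); 1 member (Myc) had an unadjusted p under 0.05, and neither edgeR's likelihood ratio test nor DESeq2 called a member. The libraries did not overlap for 4 of 9 members (Mycn and Mxd3 lower, Max and Mga higher), against 39.1% of all genes. Without hnRNPK-KD replicate 2, the log2FC was 0.37 for Myc, -0.47 for Mycn, -0.24 for Mycl, 0.04 for Max, -0.14 for Mxd3, 0.59 for Mxd4, -0.19 for Mnt, 0.12 for Mga and 0.17 for Mlx, and no member was called. In Cdk9-KD against control, edgeR called 0 of 9 members and 0.139% of all genes. Of the members, 0 had an unadjusted p under 0.05 (1720 of all 16504 genes did), and neither the likelihood ratio test nor DESeq2 called a member. There too 4 of 9 members did not overlap (Myc and Max higher, Mycn and Mxd3 lower), against 39.2% of all genes. Against the label hnRNPK-KD, Sox2-KD differed in 2 of 9 members (Mycl and Mxd4), beside 5.9% of all genes, and against Cdk9-KD in the same 2, beside 7.33%. The likelihood ratio test also called 2 in each, and DESeq2 called 3 in each, the third being Myc. Cdk9-KD against the label hnRNPK-KD gave 0 of 9, 0 at an unadjusted p under 0.05, and 0% of all genes by edgeR (943 at an unadjusted p under 0.05), with no member called by the other two tools, which called 67 and 49 genes. The comparisons with control share the control libraries.

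Of the network genes outside the members (Mxd1, Mxi1, Mlxip and Mlxipl), none was called in a knockdown against control by edgeR's quasi-likelihood test, while 3 of 4 in Sox2-KD, 2 in the label hnRNPK-KD and 1 in Cdk9-KD had an unadjusted p under 0.05. Of all 16504 genes tested, 3182, 1325 and 1720 did so, in that order of groups. DESeq2 called 1 in Sox2-KD and 1 in Cdk9-KD, and the likelihood ratio test called 1 in Cdk9-KD. Mlxipl, which encodes the glucose-responsive factor ChREBP, was 10.9 and 9.28 CPM in control, 15 and 35.8 in Sox2-KD, 5.22 and 2.56 in the label hnRNPK-KD and 2.98 and 1.12 in Cdk9-KD. Its Sox2-KD libraries were above control and those of the other knockdowns below it. It was higher in Sox2-KD than in Cdk9-KD (log2FC 3.62, adjusted p = 0.00351 in edgeR) and than in the label hnRNPK-KD (2.7, adjusted p = 0.0150 in edgeR). The first call held with each of the 4 libraries left out (2.86 to 4.51), and the second was lost without Sox2-KD replicate 2 (1.94, adjusted p = 0.131 in edgeR) or hnRNPK-KD replicate 2 (2.29, 0.114).

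Among the proteins that act with or on MYC, single genes were called in Sox2-KD, where 4.32% of all genes tested were called. Counts this small do not set these lists apart. Of 13 MYC cofactors 1 was called, Wdr5, whose protein brings MYC to chromatin, at 432 and 481 CPM in control and 259 and 293 in Sox2-KD (log2FC -0.73, adjusted p = 0.0209 in edgeR). Of 10 genes of MYC protein turnover 1 was called, Usp28, a deubiquitinase that opposes FBXW7 and stabilizes MYC, at 156 and 137 CPM in control and 54.5 and 47.5 in Sox2-KD. Usp28 fell by 1.52 on the log2 scale (adjusted p = 0.00233 in edgeR), and it remained called with each of the 4 libraries left out, whereas Wdr5 did not (adjusted p up to 0.140). Both were also called as lower in Sox2-KD than in the label hnRNPK-KD (-1.29 and -0.67 for Usp28 and Wdr5) and than in Cdk9-KD (-1.43 and -0.83). Of these, Usp28 against the label was lost without Sox2-KD replicate 2 (adjusted p = 0.0554 in edgeR), Wdr5 against the label without any 1 of the 4 libraries (up to 0.120), and Wdr5 against Cdk9-KD without Sox2-KD replicate 1 (0.0529). The median log2FC against control was 0.05 for the cofactors and 0.01 for the turnover genes, beside 0.02 for all genes tested.

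Of 9 corepressor genes of MXD and MNT, 0 were called in Sox2-KD against control by edgeR's quasi-likelihood test, 0 by the likelihood ratio test and 0 by DESeq2, with 4 at an unadjusted p under 0.05. Over all 16504 genes tested in this comparison, the quasi-likelihood test called 4.32%, and 3182 had an unadjusted p under 0.05. The lowest adjusted p there was that of Hdac2, a histone deacetylase of the SIN3 complex (251 and 264 CPM in control, 187 and 159 in Sox2-KD, adjusted p = 0.0534 in edgeR). Hdac2 was called as lower in Sox2-KD than in the label hnRNPK-KD (log2FC -0.64, adjusted p = 0.0324 in edgeR), and this call was lost without hnRNPK-KD replicate 1 or 2 or Sox2-KD replicate 2 (adjusted p up to 0.305). Of 11 partners of MGA in PRC1.6, 0 were called in Sox2-KD against control by the quasi-likelihood test of edgeR. The likelihood ratio test called 2 of them and DESeq2 2, with 4 at an unadjusted p under 0.05. The 14 genes of the LIF, WNT and ERK pathways that act on the Myc genes (12 tested) had 0 called in Sox2-KD against control by any of the 3 tests. There 1 had an unadjusted p under 0.05. In Cdk9-KD against control the quasi-likelihood test called 0, the likelihood ratio test 1 and DESeq2 1, with 3 at an unadjusted p under 0.05. By the quasi-likelihood test Lif itself was called only as higher in Sox2-KD than in Cdk9-KD (1.87, adjusted p = 0.0185 in edgeR). That call was lost with any 1 of the 4 libraries left out (1.72 to 2.04). Of 7 glucose response targets of MLX with MLXIP, 0 were called in Sox2-KD against control by any of the 3 tests and 0 had an unadjusted p under 0.05.

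Germline genes, many of which PRC1.6 with MGA and MAX is known to silence, held 2 called of 16 in Sox2-KD, both higher, beside 4.32% of all genes called. Ddx4, the germ cell helicase VASA, was 3.6 and 2.98 CPM in control and 14.3 and 11.9 in Sox2-KD (log2FC 1.99, adjusted p = 0.0132 in edgeR). Slc25a31, an ADP/ATP carrier of the testis, was 0.619 and 0.344 CPM in control and 2.58 and 3.25 in Sox2-KD (2.58, adjusted p = 0.0317 in edgeR). Both calls were lost with any 1 of the 4 libraries left out, with adjusted p up to 0.111 and 0.211. The median log2FC of the 16 was 0.44 (13 positive), beside 0.02 for all genes tested, while Dazl, a germ cell RNA-binding protein, had -0.79 (adjusted p = 0.473 in edgeR). Some of the 16 were low, such as Tdrd1 and Tdrkh at a mean of 0.651 and 0.708 CPM in control. The median of the 16 against control was -0.53 (12 negative) in the label hnRNPK-KD and -0.15 (9 negative) in Cdk9-KD. A shifted median of this list was thus not particular to Sox2-KD. These genes had 20 promoter windows, of which 11 held CACGTG, beside 7.15% of all 32851 windows. The list was chosen for its known link to MGA and MAX, which bind this sequence, so that count is no result of these data. In the comparisons between knockdowns, Slc25a31 and Smc1b, a meiotic cohesin subunit, were called as higher in Sox2-KD than in both, and Stk31 and Tex101, both testis genes, as higher than in Cdk9-KD, with log2FC of 1.03 to 3.31. Each of these calls was lost without Sox2-KD replicate 2 (adjusted p with a library left out up to 0.408). Smc1b was 4.62 to 14.3 CPM over the control and Sox2-KD libraries and 0.704 to 1.87 over the other 4.

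**Figure D4:**
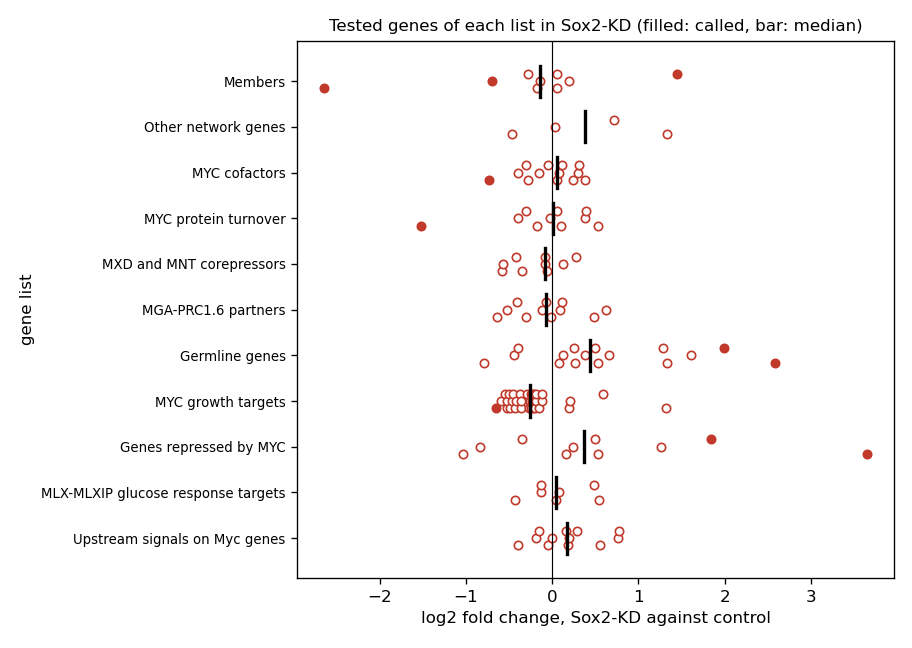
Log2 fold change in Sox2-KD against control (x axis) of each tested gene of the members and of the lists of network partners and targets (y axis), with filled circles for called genes and a bar for each list's median. The growth targets lie mostly left of 0 with a median of -0.25, and the germline genes mostly right with a median of 0.44.

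The growth targets of MYC, genes of ribosome assembly, nucleotide and polyamine synthesis and translation, were mostly below control in Sox2-KD, by less than the threshold. Of 34 genes 1 was called, beside 4.32% of all genes. This was Shmt1, a serine hydroxymethyltransferase of one-carbon metabolism, at 172 and 200 CPM in control and 128 and 110 in Sox2-KD (log2FC -0.65, adjusted p = 0.0340 in edgeR). That call was lost with any 1 of the 4 libraries left out (adjusted p up to 0.268). The log2FC was negative for 30 of the 34, with a median of -0.25 beside 0.02 for all genes tested. With library totals as scaling the median of the 34 was -0.18, but that scaling also shifted all genes by a median of 0.07. An unadjusted p under 0.05 was found for 15 of the 34, and for 3182 of all 16504 genes tested. The summed level was 19982 to 20257 CPM in control, 14261 to 16714 in Sox2-KD, 21153 to 21588 in the label hnRNPK-KD and 17787 to 19363 in Cdk9-KD. Sox2-KD was lowest in both libraries. Npm1, the nucleolar chaperone, was 3388 and 3553 CPM in control and 2739 and 2099 in Sox2-KD, and Odc1, the first enzyme of polyamine synthesis, was 580 and 568 in control and 433 and 326 in Sox2-KD (log2FC -0.52 and -0.60, adjusted p = 0.0956 and 0.0755 in edgeR). Both were called as lower in Sox2-KD than in the label hnRNPK-KD (-0.62 and -0.70, adjusted p = 0.0464 and 0.0369 in edgeR), though not without hnRNPK-KD replicate 1 or 2 or Sox2-KD replicate 2 (adjusted p up to 0.393 and 0.341). Nolc1, a nucleolar phosphoprotein, was called as lower than in Cdk9-KD (-0.63, adjusted p = 0.0209 in edgeR, up to 0.198 without Sox2-KD replicate 2 or Cdk9-KD replicate 2, where the call was lost). Npm1 and other genes of this list have near-identical processed copies, and the handling of shared reads is not stated, so their levels are uncertain.

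Genes known to be repressed by MYC held 2 called of 10 in Sox2-KD, both higher, beside 4.32% of all genes called, with a median log2FC of 0.37. Cdkn1c, the CDK inhibitor p57, was 1.63 and 0.917 CPM in control and 3.30 and 5.88 in Sox2-KD (1.84, adjusted p = 0.0414 in edgeR), and Gata6, an endoderm factor that is also on the primitive endoderm list, was 0.225 and 0.286 in control and 2.69 and 3.88 in Sox2-KD (3.65, adjusted p = 0.0111 in edgeR). Gata6 was below the filter's minimum count of 10 in control, so it was tested only through libraries where it is higher. Cdkn1c was not called without control replicate 1 or 2 or Sox2-KD replicate 2 (adjusted p up to 0.296), nor was Gata6 (up to 0.0909). Cdkn1a, the CDK inhibitor p21, was 276 and 271 CPM in control and 412 and 377 in Sox2-KD (0.53, adjusted p = 0.158 in edgeR). In the label hnRNPK-KD against control, the median log2FC of the 10 was -0.30 (7 negative, 3 positive) with none called. A difference of Sox2-KD from that label thus also holds the label's own change from control. Against the label hnRNPK-KD, 6 of the 10 were called as higher in Sox2-KD (Cdkn1a, Cdkn1c, Cdkn2b, Gadd45b, Gas1 and Gata6), with log2FC of 0.83 to 3.20, beside 5.9% of all genes called. Each of these calls was lost without Sox2-KD replicate 2 or hnRNPK-KD replicate 2. Against Cdk9-KD, 5 were called as higher (Cdkn1c, Cdkn2b, Gadd45b, Gas1 and Gata6, 1.25 to 4.72) and Ndrg2 as lower (-1.36), beside 7.33% of all genes called. With each of the 4 libraries left out in turn, only Gadd45b and Gata6 remained called in every fit.

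Markers of other cell types moved with Sox2-KD, where 4.32% of all genes tested were called against control. Of the trophectoderm markers 5 of 8 tested (10 listed) were called, all higher, among them the keratins Krt8 (18.4 and 17.4 CPM in control, 97.1 and 182 in Sox2-KD) and Krt18 (3.27 and 2.86 against 41.4 and 82.7), with Krt7, Gata3 and Eomes. Their summed level was 94.4 to 113 CPM in control and 195 to 336 in Sox2-KD, while the defining factor Cdx2 was 19.8 and 35.1 in control and 6.10 and 6.22 in Sox2-KD. Of the primitive endoderm markers 3 of 7 tested (10 listed) were called, Dab2 and Gata6 higher and Lama1 lower. The log2FC was positive for 5 of the 7 tested and negative for 2, with a median of 1.68. The sum of the list went the other way, with 225 to 254 CPM in control and 154 to 213 in Sox2-KD. Such a sum is weighted to the most abundant genes. Sox7 was at 0 in control. Of the fibroblast markers 1 of 6 tested (10 listed) was called, Lum (0 and 0.0573 CPM in control, 1.26 and 0.742 in Sox2-KD). Lum and Gata6 were below the filter's minimum count of 10 in control, so they were tested only through libraries where they are higher. DESeq2 did not call Lum. The fibroblast markers had a sum of 1746 to 1756 CPM in control and 2115 to 2691 in Sox2-KD. Their log2FC was positive for 3 of the 6 tested and negative for 3, with a median of -0.05, so the list did not rise as a whole. Dcn, Postn and S100a4 were at 0 in control and S100a4 in Sox2-KD. Of the pluripotent cell markers 2 of 12 were called, Sox2 lower and Utf1 higher, with a sum of 8053 to 8487 CPM in control and 7058 to 8006 in Sox2-KD. With each of the 4 libraries left out in turn, Krt8, Krt18 and Dab2 remained called in every fit and the other markers named did not. The part of these cell types in the levels of Mycl, Mycn, Mxd4 and the lists was not tested. In Cdk9-KD, 2 of 8 trophectoderm markers were called, Eomes higher and Tfap2c lower, beside 0.139% of all genes called. Both calls were lost without control replicate 1 or 2. The trophectoderm sum in Cdk9-KD was 96.7 to 98.9 CPM, while the label hnRNPK-KD had no marker called by edgeR's quasi-likelihood test.

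The genes whose level was most like that of the MYC genes over the 8 libraries were sought among 9710 genes, by Pearson's r of log2 CPM. For Mycl they were Paqr8 (r = 0.993), a membrane progestin receptor, Ccbe1 (0.989), a secreted factor of lymphatic growth, and Jam3 (0.988), a junction protein. Paqr8 was 14.7 and 15 CPM in control, 5.0 and 4.68 in Sox2-KD and 12.2 to 14.1 in the other 4 libraries, so that its likeness is set by the 2 Sox2-KD libraries. For Mycn they were 3110082I17Rik (0.981), Uhrf1 (0.971), which maintains DNA methylation, and Pebp1 (0.966), an inhibitor of RAF signalling. Uhrf1 was 640 and 790 CPM in control and 417 and 466 in Sox2-KD. For Myc they were Tut1 (0.974), which uridylates U6 RNA, Msrb2 (0.969), a methionine sulfoxide reductase, and Psmd9 (0.961), a proteasome chaperone. Tut1, like Myc, was lowest in control replicate 1 (51.9 CPM against 64.2 in replicate 2) and highest in Cdk9-KD replicate 1 (74.2) and hnRNPK-KD replicate 2 (71.4), so that the likeness follows differences within groups. These correlations are descriptions over libraries that share their groups.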

How the data were processed

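Raw counts per gene, of each library alone and with no scaling, were deposited by the authors after trimming (Trimmomatic), alignment (STAR) and counting against the mm10 genome with the GENCODE vM23 annotation. The processing notes of the submitters name STAR 2.7.9a and featureCounts 2.0.1. The strand setting and the handling of reads shared between genes are not given in the sources used here, and counts per gene cannot separate isoforms. Symbols and coordinates came from GENCODE vM21 (GRCm38), promoter windows from RefSeq. All 8 count columns matched a group and replicate by name.

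Low genes were dropped by filterByExpr, with a minimum count of 10 and a total of at least 15. One model of all 8 libraries with a group term was fitted in edgeR 4.0.16 (R 4.3.3, TMM, quasi-likelihood test, Benjamini-Hochberg over 16504 genes), with the study's thresholds; DESeq2 1.42.0 was an alternative. The same steps were tested on simulated data. With 2 libraries per group, the spread behind the p-values was estimated from the replicates of all 4 groups, with information shared across genes. The p-values measure no spread beyond that between these libraries. Replicates were not duplicates: the chi-square per gene between them was 16.4 to 28.9.

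Named genes were the members, each list gene called in a comparison (at most 8 per list), defining markers, the targeted genes and the 3 genes most like each MYC gene (average log2 CPM over 3). Members and lists were chosen with earlier results of these data known. Alternatives were RLE and library-total scaling, no filter, the likelihood ratio test, DESeq2, a replicate block, only the 4 libraries compared and leaving out each library.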

Additional observations from a re-analysis of the deposited data

How the results depend on the processing

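Mycl in Sox2-KD was called in 11 of 11 alternatives (log2FC -2.78 to -2.53), Mxd4 in 7 (1.37 to 1.52) and Mycn in 5; Mycn missed the threshold with library totals (-0.63, adjusted p = 0.0602 in edgeR) and without the filter (-0.74, 0.0576). The members called in Sox2-KD against control fell from 3 to 1 with any 1 of the 4 libraries left out (range 1 to 1). Against the label hnRNPK-KD the 2 members became 1 with no filter and 1 with only the 4 libraries compared, and ranged from 1 to 2 with a library left out, as they did against Cdk9-KD. DESeq2 called 3 members in both of these comparisons, and with only the 4 libraries compared 3 were called against Cdk9-KD, Myc being the third each time. Deviations of same-numbered replicates correlated at 0.21 between control and Sox2-KD, 0.12 between control and the label hnRNPK-KD, 0.10 between that label and Cdk9-KD, and at -0.22 to 0.04 in the other 3 pairs of groups, so the numbers were not taken to pair the libraries. The replicate block left 3, 2 and 2 members called in these comparisons, and 15 of all genes in Cdk9-KD in place of 23. Of 77 calls of members and list genes it lost 7, with adjusted p of 0.0669 for Sox2 and 0.0602 for Cdkn1c against control, 0.0636 for Npm1 and 0.0541 for Odc1 against the label hnRNPK-KD, and 0.0702 for Tex101, 0.0552 for Cdkn2b and 0.0520 for Sox17 against Cdk9-KD. All genes called in Sox2-KD, the label hnRNPK-KD and Cdk9-KD against control were 713, 0 and 23, but 1350, 87 and 279 by the likelihood ratio test; DESeq2 gave 1009, 69 and 209.

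Members near 0 changed sign. Mlx in Cdk9-KD (0.01) was -0.0095 with RLE, -0.0013 with library totals, -0.0067 without the filter and -0.0096 in DESeq2. With a library left out, the log2FC in Sox2-KD ranged from -0.89 to 0.74 for Myc, -0.057 to 0.144 for Max and -0.38 to 0.031 for Mnt. In the label hnRNPK-KD it ranged from -0.24 to 0.17 for Mycl, -0.31 to 0.59 for Mxd4, -0.19 to 0.43 for Mnt and -0.034 to 0.28 for Mlx. In Cdk9-KD it ranged from -0.30 to 0.12 for Mycl, -0.012 to 0.11 for Max, -0.24 to 0.10 for Mxd4, -0.0047 to 0.41 for Mnt, -0.28 to 0.12 for Mga and -0.17 to 0.14 for Mlx. The causes were not tested, except that a fit with a library left out has fewer samples. Library totals shifted the median of all genes by at most 0.11 (Sox2-KD against the label hnRNPK-KD). The lowest counts were 59 for Mxd3, 69 for Myc and 99 for Mxd4, so relative counting error is larger there than for the other members. Differences between replicates did not follow the counts alone, being up to 3.08-fold for Myc and at most 1.13-fold for Mxd3.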
